A study of Mus musculus with 8 samples.

Results

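The genes described here are Trp53, which encodes the transcription factor p53, and 9 of its direct target genes: Cdkn1a, Mdm2, Ccng1, Trp53inp1, Phlda3, Zmat3, Aen, Plk2 and Perp. They were taken by name from the authors' comparison of METTL3-depleted and untreated mouse embryonic stem (mES) cells, and all 10 were found among the 17597 genes of that table. METTL3 is the methyltransferase behind most N6-methyladenosine (m6A) in mRNA. In every library both groups carried METTL3 fused at its C terminus to FKBP12F36V, a degron domain through which the small molecule dTAG-13 sends the fusion protein to the proteasome. The cells were XX mES cells of Cast x 129S background in which a TetOn promoter replaced the endogenous Xist promoter, on the 129S allele per the labels and on the Cast allele per the study's text. No doxycycline was given to either group. One group of 4 libraries was untreated and the other group of 4 received dTAG-13 for 26 h, and clones C3 and H5 each gave 2 replicates to either group. Each line is 1 clone, the cells were grown on mitomycin C-inactivated mouse fibroblasts, and the labels do not say whether the replicates were separate cultures. For its RNA-seq in general, the study describes independent clones or repeats of a clone, and for culture experiments the division of one batch of cells among the conditions of a replicate. Which of these libraries were tied in that way is not stated, and the p-values measure the spread between these libraries only.

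p53 is a transcription factor that is kept low in unstressed cells, mainly because MDM2, a ubiquitin ligase, and its partner MDM4 bind it, and that accumulates after DNA damage and other stress. It binds paired half-sites in DNA and raises transcription of genes for cell cycle arrest, cell death, repair and metabolism, and also of Mdm2 and Ccng1, whose products act back on p53. mES cells make much p53 and have a weak G1 arrest, and Mdm2 and Mdm4 are held to be essential in the early embryo because p53 is lethal without them.

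The DNA element that p53 binds consists of 2 half-sites of 10 bases, each with a core such as CATG, in which the middle bases may be any mix of A and T. RefSeq promoter windows (GRCm38.p6) reaching from 250 bases before to 50 bases after a start site were found for 7 of the 10 genes, and they were searched on the gene's strand for this consensus, which reads the same on both strands, with no spacer and no mismatch in the cores. With up to 2 mismatches elsewhere, 1 of these 7 genes held a match, Cdkn1a, while 51 of 27025 genes with a window (0.189%) did. With a spacer of 0 to 13 bases allowed at up to 2 mismatches, 1 of the 7 held a match, against 2.47% of genes. With no spacer and up to 3 mismatches 3 of the 7 did, against 0.673% of genes. The 3 matches are shown because p53 is known for binding such elements in its targets, though Trp53 encodes p53 itself. Cores are in capitals, and each match is written 5′ to 3′ on the plus strand, which is the gene's strand.
Cdkn1a, chr17:29090928-29090947, 1 mismatch: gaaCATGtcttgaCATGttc
Trp53, chr11:69580284-69580303, 3 mismatches: ggaCTTGcccttaCTTGtta
Aen, chr7:78895937-78895956, 3 mismatches: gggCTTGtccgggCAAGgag
The Cdkn1a element began 51 bases before the upstream start site of the gene, and ended 2822 bases before the start of the transcript used here to represent it. The Trp53 element lay upstream of the gene and began 75 bases before the start site, and the Aen element began 10 bases after it, within the first exon. In the Trp53 and Aen matches all 3 mismatches lay in the 3′ half-site. A match is a description of the letters, and binding was not measured. Sequence outside these windows was not searched, so a gene without a match may hold an element elsewhere.

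The values analysed were 1 mean count per gene over the 8 libraries and 1 log2 fold change with its standard error (SE). No values per library were used here, so the groups are shown by their implied means, which are the group levels that give both the mean count and the fold change. Which group is the numerator is not written in the table. A value above 0 is taken here to mean a higher level after dTAG-13, and every direction would turn under the opposite reading. A gene was called when the adjusted p of the authors' Wald test was under 0.05, which 19.2% of the 18694 genes and transposable element subfamilies tested and 20.0% of the genes passed. Of genes at mean counts of 100 or more, a level that all 10 members exceeded, 28.3% passed. Mean counts of genes added up to 14573411, of which the 10 members held 0.162%. Since dTAG-13 removes protein, the RNA of the targeted gene does not check the labels: at a mean count of 684, Mettl3 gave -0.09 ± 0.31 (SE) on the log2 scale.

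Transcripts of p53 and its targets did not move one way after METTL3 depletion. Of the 10 genes 1 rose, the exonuclease gene Aen, and 2 fell, the cyclin gene Ccng1 and the stress gene Trp53inp1, while 7 did not pass the test. That is 30% of the members against 28.3% of genes at mean counts of 100 or more, so the share is near the background. By direction, 10.7% of all genes rose and 9.35% fell, and at that level 13.3% rose and 15.0% fell. The log2 fold changes ran from -0.50 for Trp53 to 0.47 for Aen with a median of -0.29, 7 of the 10 lay below 0, and the median of genes at mean counts of 100 or more was -0.05, with 5555 of 9899 below 0. The estimate of no member reached 1.5-fold. The 95% confidence intervals of all but Mdm2, Ccng1 and Perp did reach past it, as for Trp53 (down to 0.502-fold) and Aen (up to 1.68-fold). The 3 calls did not hold under all scalings: with the trend over GC content or over mean count removed, Aen alone was past the threshold.

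**Figure D1:**
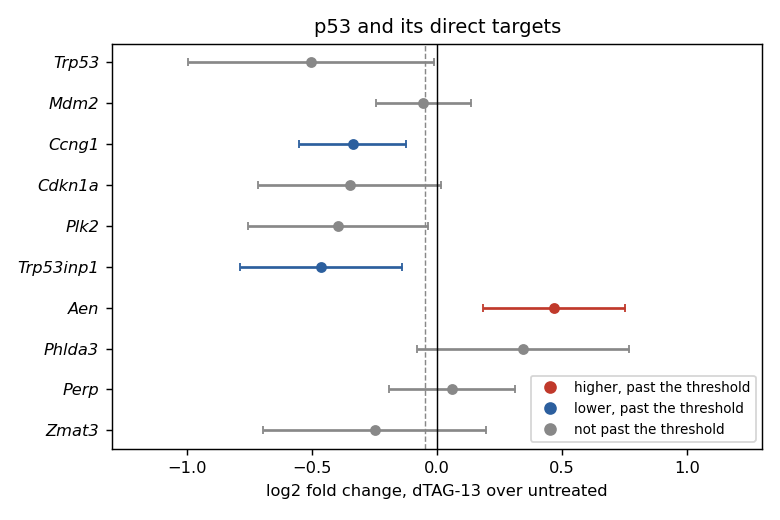
Log2 fold change (dTAG-13 over untreated, x axis) of the 10 genes, with 95% confidence intervals from the standard error of the authors' model of 4 against 4 libraries. The dashed line marks the median of genes at mean counts of 100 or more (-0.05), and the coloured points are Aen at 0.47, Ccng1 at -0.34 and Trp53inp1 at -0.46.

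Trp53 (chr11:69580359-69591873, plus strand) encodes p53 itself. Its mean count was 2161, with implied group means of 2535 in untreated and 1787 in dTAG-13-treated cells. The log2 fold change of -0.50 ± 0.25 (SE) was the lowest of the 10 genes, with a 95% confidence interval from -0.99 to -0.01, but it did not pass the adjustment (p = 0.0437, adjusted p = 0.154, Wald test of DESeq2 as run by the authors). The SE was at the 98.6th percentile of the genes closest to it in mean count, whose median SE was 0.12. With that spread a change of 0.65 on the log2 scale was needed to pass, so a decrease of the size seen could not have been called. Without values per library, a difference between clones C3 and H5 and one between replicates of a clone cannot be told apart.

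Mdm2 and Ccng1 are the targets that feed back on p53. Mdm2 (chr10:117688875-117710758, minus strand), the ubiquitin ligase gene, had implied means of 2306 in untreated and 2219 in treated cells. These levels differed by a log2 fold change of -0.06 ± 0.10 (SE, adjusted p = 0.762, Wald test), with an interval from -0.25 to 0.13, and its SE was low for its level (22.6th percentile). Among the 10 genes Mdm2 was the one measured most precisely, and a change of 0.25 on the log2 scale would have passed. The sign of Mdm2 was not fixed: it was 0.015 with the GC trend and 0.11 with the mean count trend removed, neither past the threshold.

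Ccng1 (chr11:40748552-40755311, minus strand), encoding cyclin G1, which recruits a phosphatase to MDM2, was the most abundant of the 10 genes with a mean count of 6667. It fell from an implied mean of 7445 to 5890, a fold change of 0.791 with a 95% confidence interval from 0.682 to 0.918. On the log2 scale that was -0.34 ± 0.11 (SE, adjusted p = 0.0147, Wald test). Removing the GC trend left -0.19 (adjusted p = 0.241) and removing the mean count trend left -0.17 (adjusted p = 0.326), so the call was lost under both. The transcript has a GC content of 40.8%, which is the 6.23rd percentile over genes at mean counts of 10 or more.

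Cdkn1a and Plk2 are targets that act on the cell cycle. Cdkn1a (chr17:29090976-29100727, plus strand) encodes p21, the inhibitor of cyclin-dependent kinases through which p53 stops cells in G1, and it had the lowest mean count of the 10 genes, 249.9. Its implied means were 280 in untreated and 220 in treated cells, a log2 fold change of -0.35 ± 0.19 (SE, adjusted p = 0.197, Wald test). The confidence interval reached from -0.72 to 0.02 and so held both no change and a decrease of more than 1.5-fold. Exons of Cdkn1a share 273 bases with a gene on the opposite strand, AC167363.2, and since the strand setting of the counting is uncertain, reads of both may be mixed. No other member shares exon bases with a gene on the opposite strand. Plk2 (chr13:110395046-110400844, plus strand), a polo-like kinase gene, had implied means of 1443 and 1095. Its log2 fold change of -0.40 ± 0.18 (SE) was under the unadjusted level (p = 0.0301, adjusted p = 0.118, Wald test of DESeq2 as run by the authors).

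Trp53inp1 (chr4:11156431-11174379, plus strand) encodes a stress protein that binds p53 in nuclear bodies and takes part in autophagy and cell death. It fell from an implied mean of 6240 to 4523, a log2 fold change of -0.46 ± 0.16 (SE, adjusted p = 0.0295, Wald test), or 0.725-fold with an interval from 0.580 to 0.907. The call was lost when all changes were re-centred on genes at mean counts of 100 or more (adjusted p = 0.0600), with the GC trend removed (adjusted p = 0.183) and with the mean count trend removed (adjusted p = 0.235). Its transcript has a GC content of 38.8%, at the 2.35th percentile.

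Aen (chr7:78895854-78911209, plus strand), which encodes an exonuclease that degrades nucleic acid in dying cells, rose from an implied mean of 2803 to 3875. The log2 fold change was 0.47 ± 0.14 (SE, adjusted p = 0.0101, Wald test), which is 1.38-fold with an interval from 1.14 to 1.68. Aen passed the test with changes re-centred (adjusted p = 0.00367), with the GC trend removed (adjusted p = 0.0188) and with the mean count trend removed (adjusted p = 0.000231). Under the stricter Benjamini-Yekutieli adjustment its p was 0.105, and neither Aen nor any other member was past the threshold then.

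Phlda3, Perp and Zmat3 did not pass the test. Phlda3 (chr1:135766119-135769136, plus strand), whose product holds back AKT signalling at the membrane, had implied means of 496 and 629 and a log2 fold change of 0.34 ± 0.22 (SE, adjusted p = 0.295, Wald test). With the GC trend removed this value was 0.05, and at 62.6% the GC content of its transcript was at the 98.6th percentile. Perp (chr10:18845020-18857073, plus strand), a gene for a membrane protein of desmosomes and of cell death, had implied means of 765 and 796. Its log2 fold change of 0.06 ± 0.13 (SE) had an interval from -0.19 to 0.31, which holds no change of 1.5-fold in either direction. Zmat3 (chr3:32334792-32366014, minus strand) encodes a zinc finger protein that binds RNA and affects splicing and mRNA stability, and it gave implied means of 1061 and 892. The value of -0.25 ± 0.23 (SE) had an interval from -0.70 to 0.20, and its SE was at the 95.8th percentile for its level.

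**Figure D2:**
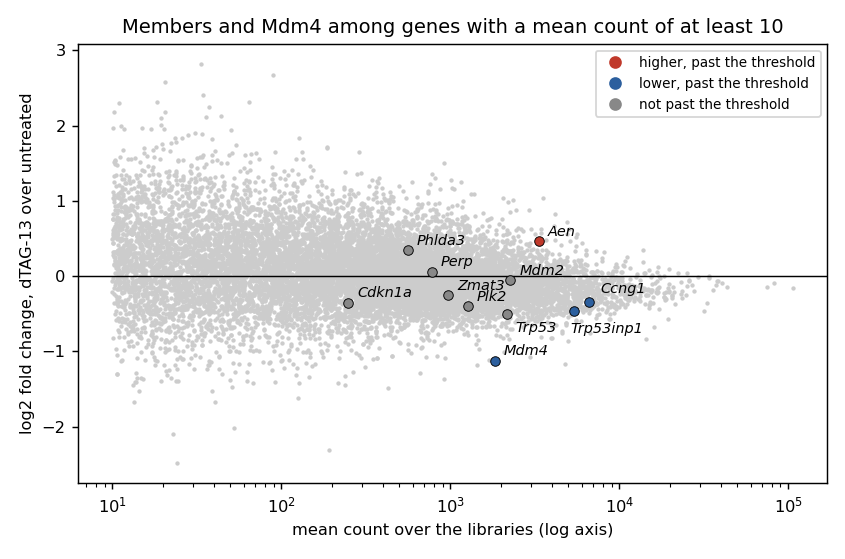
Log2 fold change (dTAG-13 over untreated) against mean count over the 8 libraries (log axis) for genes at mean counts of 10 or more (grey), with the 10 genes and Mdm4 marked. Members lie between mean counts of 249.9 (Cdkn1a) and 6667 (Ccng1), inside the cloud of all genes, while Mdm4 at -1.13 lies near its lower edge.

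**Figure D3:**
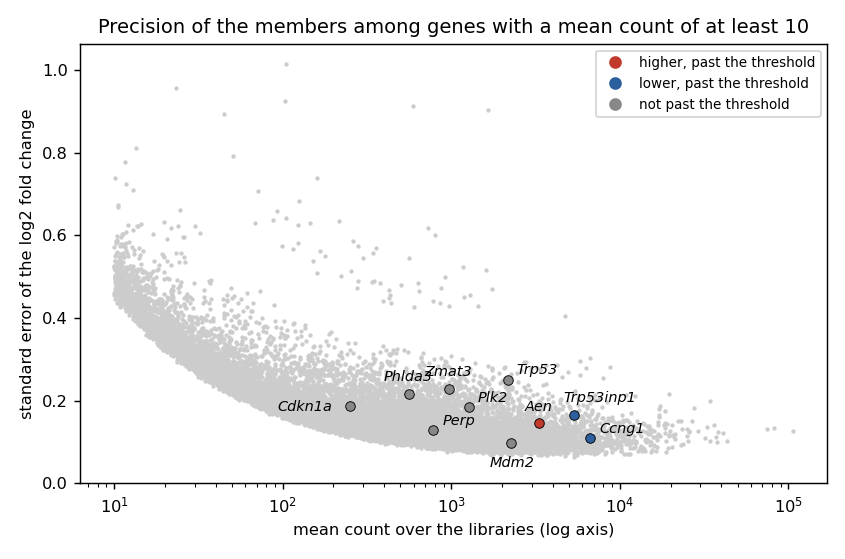
Standard error of the log2 fold change against mean count (log axis) for genes at mean counts of 10 or more (grey), with the 10 genes marked. Mdm2 at 0.10 lies low for its level, and Trp53 at 0.25 lies high for its level.

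Per kb of summed exons, the order of the levels was led by Ccng1 with a mean count of 1898 per kb. Trp53inp1 (831 per kb), Aen (576), Trp53 (534), Mdm2 (445), Perp (400), Phlda3 (361) and Plk2 (283) followed. Zmat3 (85.4 per kb) and Cdkn1a (70.3) came last, close to the median of 81.2 over genes at mean counts of 10 or more. The other 8 genes were above the 77th percentile of those genes. Which neighbours in this order differ cannot be said without a spread over libraries. Divided by the length of the representative transcript in place of all exons, the level of Trp53 was 1220 per kb and that of Cdkn1a 131, above Zmat3 at 127.

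The messages differ in the features along which m6A is usually placed. m6A is found mostly in long internal exons and in last exons near the stop codon, at motifs such as GGAC, and is kept away from short exons close to splice junctions. Zmat3 has the longest internal exon of the 10 representative transcripts, 1209 bases (95.1st percentile over genes at mean counts of 10 or more), and a last exon of 5628 bases (96.7th percentile). Trp53inp1 and Aen also end in long exons, of 4670 and 4066 bases. Per kb of transcript, those of Trp53 and Plk2 are the ones most divided, with 6.21 and 5.00 exons against a median of 3.39. By number, Plk2 has 14 exons, Mdm2 12 and Trp53 11. Phlda3 has 2 exons and therefore no internal one. The motif GGAC stood 21 times in Plk2, or 7.50 times per kb (93.7th percentile), and 8 times in the much longer Trp53inp1, or 1.48 times per kb (3.39th percentile). Few exons per kb and a long last exon were found in Aen, which rose (0.81 per kb), and in Trp53inp1, which fell (0.74). Zmat3, which did not pass the test, also has both (0.91 per kb). A link between these features and the changes was not tested. m6A itself was not measured in these libraries.

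Regulators of p53 were described by a list of 24 genes, chosen with earlier results of these data known. Of these, 2 rose and 7 fell, with 15 not past the test. The share past the threshold was 37.5%, against 28.3% of genes at mean counts of 100 or more, a level that 23 of the 24 reached. Re-centring, removing the GC trend and removing the mean count trend each left 7 of the 24 past the threshold. The share of the list thus depended on the scaling. The median log2 fold change of the 24 genes was -0.25. The largest change was that of Mdm4, encoding the partner of MDM2 that masks the activation domain of p53. Mdm4 fell from an implied mean of 2514 to 1152, a log2 fold change of -1.13 ± 0.12 (SE, adjusted p = 1.02e-17, Wald test), and was past the threshold under every scaling, filter and adjustment run. The fold change was 0.458 with an interval from 0.389 to 0.540. Mdm4 thus fell while its partner Mdm2 gave -0.06; the difference between both was not tested.

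The kinase gene Atm fell by 0.57, Atr by 0.46 and Chek2, whose product phosphorylates p53, by 0.43 on the log2 scale (adjusted p = 0.000325, 2.10e-05 and 0.0309, Wald test). The ligase genes Trim24 and Huwe1 fell by 0.51 and 0.57, and Usp7, for a deubiquitinase of both MDM2 and p53, fell by 0.37. The call of Huwe1 was close to the threshold (adjusted p = 0.0446, Wald test), and the calls of Huwe1 and Chek2 were lost under all 3 scalings (adjusted p = 0.0753 to 0.215 and 0.0655 to 0.0875). The regulators that rose were Usp10, for a deubiquitinase that stabilises p53, at 0.63 ± 0.10 (SE, adjusted p = 4.29e-08, Wald test) and Ppm1d, for the phosphatase WIP1 that dephosphorylates p53 and is itself a target, at 0.48 ± 0.11 (SE, adjusted p = 0.000284). Exons of Atr share 1188 bases with genes on the opposite strand.

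Of 29 further direct targets 3 rose and 6 fell, 20 did not pass the test, and the median log2 fold change was -0.06. The share past the threshold was 31.0%, against 20.0% of all genes and 28.3% of those at mean counts of 100 or more, a level that 25 of the 29 reached. With changes re-centred the split was 4 higher and 3 lower, with the mean count trend removed 3 higher and 4 lower, and with the GC trend removed 3 higher and 8 lower, so the balance of the calls depends on the scaling. Sfn, for 14-3-3 sigma, which holds cells before mitosis, rose from an implied mean of 1335 to 2753, or 1.04 ± 0.18 (SE, adjusted p = 2.04e-07, Wald test). Tigar, named 9630033F20Rik in the table and encoding a phosphatase that slows glycolysis, rose by 0.66 on the log2 scale, and Fdxr, a gene of mitochondrial electron transfer, by 0.47.

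Pmaip1 (NOXA) fell by 0.60 and Bbc3 (PUMA) by 0.46, both genes of BH3-only proteins that open the way to apoptosis, and Apaf1, for the scaffold of the apoptosome, by 0.48 (adjusted p = 0.0418, 0.0380 and 3.58e-05, Wald test). Ei24 fell by 0.45, the growth arrest gene Gadd45a by 0.46 and Psrc1, a gene of the mitotic spindle, by 0.39. The call of Pmaip1 was lost under all 3 scalings (adjusted p = 0.0696 to 0.131). That of Bbc3 was lost after re-centring (adjusted p = 0.0744), while Bbc3 was at -0.75 with the GC trend removed (adjusted p = 0.000218) and at -0.50 with the mean count trend removed (adjusted p = 0.0233). Bax, for the pore-forming protein on which BH3-only proteins act, gave -0.10 ± 0.15 (SE, adjusted p = 0.718) as deposited. Its value followed the scaling: with the GC trend removed Bax was past the threshold at -0.39 (adjusted p = 0.0490), and with the mean count trend removed it was at 0.07 (adjusted p = 0.835). In this list Apaf1, Ei24, Gadd45a, Sfn and Tigar were past the threshold under all 3 scalings. Bbc3, Fdxr, Pmaip1 and Psrc1 each lost their call under 1 or more. Exons of Ei24, Gadd45a and Tigar share 324, 337 and 122 bases with genes on the opposite strand, so reads may be mixed there too.

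**Figure D4:**
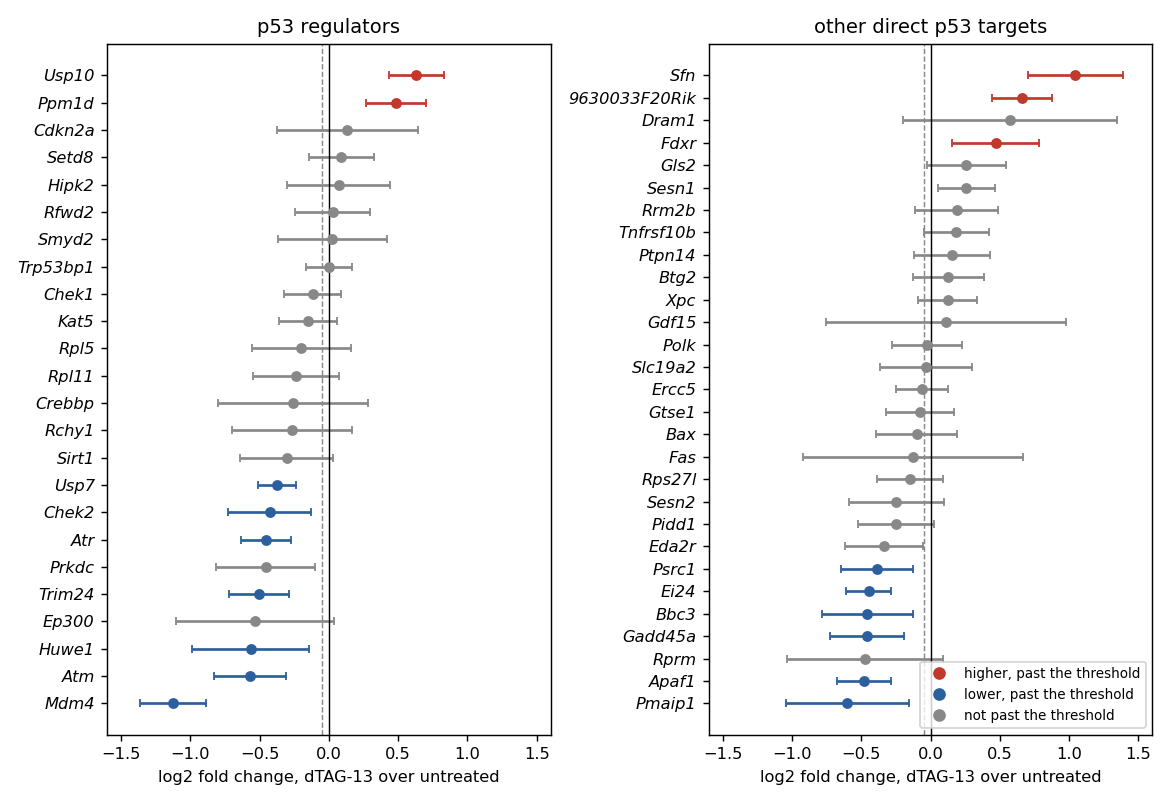
Log2 fold change (dTAG-13 over untreated) with 95% confidence intervals for the 24 regulators (left) and 29 other direct targets (right), ordered by value, with the dashed line at the median of genes at mean counts of 100 or more. Mdm4 (-1.13) stands apart at the bottom of the regulators and Sfn (1.04) at the top of the targets.

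Promoter windows of the further targets were searched in the same way. Of the 24 with a promoter window 2 held a match with up to 1 mismatch and 4 in all with up to 3. Among all genes with a window the shares were 0.0666% and 0.673%. These 4 genes are shown because both directions of change and no call occur among them, with the cores in capitals, each 5′ to 3′ on the gene's strand.
Rps27l, chr9:66946296-66946315, plus strand, 1 mismatch: gggCTTGttgagaCTTGtcc
Gtse1, chr15:85859945-85859964, plus strand, 1 mismatch: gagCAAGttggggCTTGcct
Bbc3, chr7:16309486-16309505, plus strand, 3 mismatches: ctgCAAGccccgaCTTGtcc
Tigar, chr6:127109746-127109765, minus strand, 3 mismatches: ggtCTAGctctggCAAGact
Rps27l, a gene of a ribosomal protein variant, gave a log2 fold change of -0.15, and Gtse1, whose product exports p53 from the nucleus, gave -0.08, neither past the threshold. Among the 7 genes shown with a match, Cdkn1a, Trp53, Rps27l and Gtse1 were not past the threshold, Aen and Tigar rose and Bbc3 fell. The Bbc3 call was lost after re-centring. These 7 genes are too few to be set against the 28.3% called among genes at mean counts of 100 or more.

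Both relatives of p53 were low. Trp63 had a mean count of 2.95, so no statement on its change is possible (-0.11 ± 0.84, SE). Trp73 had a mean count of 141 and fell by 1.01 on the log2 scale (SE 0.30, adjusted p = 0.00737, Wald test), but its exons share 280 bases with Trp73os on the opposite strand.

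The values of the members depended in part on the scaling. Re-centring moved every value up by 0.05. Of the 10 members Mdm2 was the one to change sign, and Aen the one past the threshold under all 3 scalings. Trp53 ranged from -0.34 to -0.59 and Cdkn1a from -0.30 to -0.46, and neither was past the threshold, with the lowest adjusted p of both under GC correction (0.0864 and 0.0730, Wald test).

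**Figure D5:**
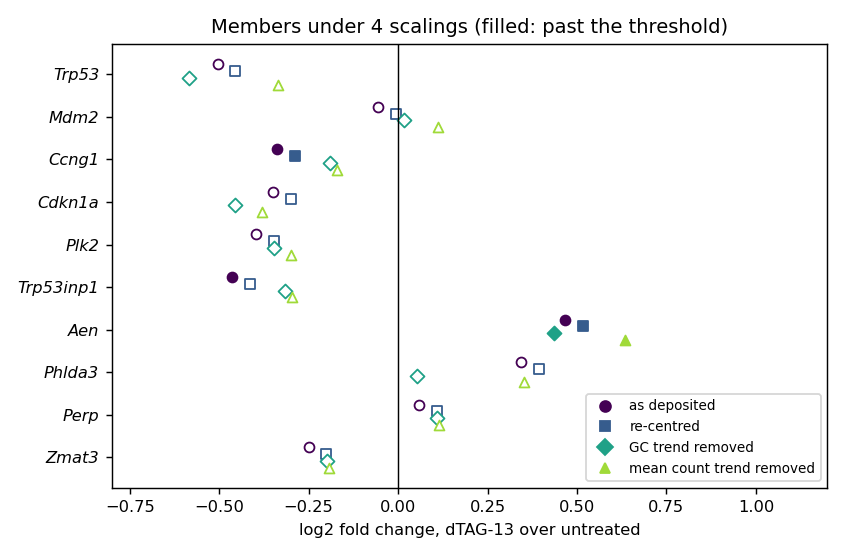
Log2 fold change (dTAG-13 over untreated) of the 10 genes as deposited, re-centred, with the GC trend removed and with the mean count trend removed. Symbols are filled where the adjusted p was under 0.05: Aen is filled 4 times, Ccng1 2 times and Trp53inp1 1 time.

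Marker genes were read beside these results. All 10 markers of mES cells were expressed, at mean counts of 1019 to 11934, led by Pou5f1, Dppa5a and Zfp42. Dppa5a fell by 0.40 and Tdgf1 by 0.35, and the other 8 did not pass the test (median -0.10). With the mean count trend removed Dppa5a was at -0.24 and Tdgf1 at -0.18, neither past the threshold (adjusted p = 0.199 and 0.259), and both calls held under the other 2 scalings. Pou5f1 was at -0.11 as deposited (adjusted p = 0.524, Wald test). With the GC trend removed it was past the threshold at -0.28 (adjusted p = 0.0434, Wald test). Of 15 markers of the fibroblast feeders 5 had mean counts under 10. The levels of all 15 summed to 1785, against 66586 for the mES cell markers. The most abundant were Cald1, Fbn1 and Tagln at 536, 361 and 345. Exons of Fbn1 and Tagln share 2442 and 1349 bases with genes on the opposite strand, so their levels and the sum may include other reads. Col5a1, whose exons share 212 bases with genes on the opposite strand, rose by 0.52. The other 14 did not pass the test, and the median was 0.21. The SEs of Tagln (0.56) and Acta2 (0.93) were at the 99.6th percentile for their level. Of 6 markers of primitive endoderm, with mean counts summing to 1833, the most abundant were Lama1, Dab2 and Pdgfra at 1594, 162 and 39.1. None passed as deposited (median 0.16), with 4 above 0 and 2 below. Lama1, the 1 at an unadjusted p under 0.05, was at -0.34 (adjusted p = 0.0961, Wald test of DESeq2 as run by the authors). With the GC trend removed Lama1 was past the threshold at -0.42 (adjusted p = 0.0306, Wald test), and under the other 2 scalings it was not. The part of feeder cells in the values of p53 targets, which fibroblasts express too, was not tested, and in bulk RNA fewer cells of a type and less RNA per cell cannot be told apart.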

How the data were processed

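Total RNA was sequenced after ribosomal RNA depletion, per the molecule label and the study's methods (the labels' extraction text describes chromatin RNA). The authors removed rRNA reads with bowtie2, aligned to N-masked mm10 with STAR, removed duplicates with Picard and ran TEtranscripts with default parameters, which calls DESeq2. The table holds the authors' own comparison and nothing per library, so its columns were used as deposited and no model was refitted. The deposited signal is the mean over libraries of counts divided by size factors. The deposited log2 fold change has its standard error, the deposited score is their ratio (Wald), and Benjamini-Hochberg values stand beside the deposited p-values. In all 18694 features the statistic could be recomputed to about 6 digits, and p and adjusted p to 6 decimal places. The digits of p-values smaller than that were not checked. The name of the table includes the word reverse, a strand setting or an inverted contrast, so strand use and direction are uncertain. The authors stated no term for clone, so clone differences add to the standard errors. Total counts per library are not known here, so the depth behind each value is known only through the mean count.

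Confidence intervals (95%) were computed from the standard errors. Positions and transcripts came from GENCODE vM21 (GRCm38, the build of mm10): 16660 symbols matched directly, 712 by an older symbol and 225 had no position. Percentiles are over genes at mean counts of 10 or more. Trends were removed as the median change of each of 10 groups of equal size. A search within 2500 bases of the start sites was planned, but no genome was used here, so RefSeq windows of 300 bases took its place. The scripts, run in Python 3.11.15 with numpy 2.4.6, pandas 2.3.3 and scipy 1.17.1, were tested on simulated data. The genes named were all 10 members; the regulators, further targets and markers past the threshold; Mdm4, Trp63, Trp73, Bax and Bbc3; and the 3 most abundant markers of each list. Genes with a printed element were named for it. The members and lists were chosen with earlier results of these data known. Alternatives were other scalings, filters, adjustments, a minimum change, mismatches, spacer and length.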

Additional observations from a re-analysis of the deposited data

How the results depend on the processing

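Members past the threshold numbered 3 as deposited, 2 after re-centring, 1 with the GC trend and 1 with the mean count trend removed, 0 with the Benjamini-Yekutieli adjustment (5 had an unadjusted p under 0.05) and 0 when a 1.5-fold change was required. Adjusting over genes only, or over features with a mean count of at least 10 or 100, left 3. Over all features the count of 3583 became 1892 with Benjamini-Yekutieli and 1629 with the 1.5-fold requirement, and over all genes 3526 became 1870 and 1599. A 1.5-fold change left 2 of 9 regulators and 3 of 9 further targets, and Benjamini-Yekutieli left 4 further targets. Re-centring moved the genes called from 1881 higher and 1645 lower to 2200 and 1239. Mdm2 turned to 0.015 with the GC trend (adjusted p = 0.944) and 0.11 with the mean count trend removed (adjusted p = 0.500). Matches to the p53 consensus were found in 3 members with up to 3 mismatches. Of 80 values of members under alternatives 67 kept their direction and side of the threshold, 11 lost a call and 2 changed sign. The calls lost were those of Ccng1, Trp53inp1 and Aen, and the sign that changed was that of Mdm2. Filters, adjustments and the minimum change left the log2 fold changes as deposited, so direction could turn only under the 3 scalings. Benjamini-Yekutieli and the minimum change could only remove calls. The alternatives for Mdm4 were added after its value was seen. The window of 5000 bases was not run. No paired analysis was possible because the table holds no values per library, and for the same reason no library could be left out; which calls rest on 1 library or 1 clone is unknown.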
